A study of Homo sapiens with 8 samples.

Results

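YAP1 and its paralogue TAZ are transcriptional coactivators that have no DNA-binding domain of their own and reach genes mainly through the TEAD factors, which read a short motif with the core GGAATG. The Hippo kinases restrain them: MST kinases (STK3, STK4) with the scaffold SAV1 activate the LATS kinases, which phosphorylate YAP1 and TAZ so that they are held in the cytoplasm or degraded. In epithelia this pathway responds to cell contacts, polarity and actin tension, and its target genes are widely used as a readout of YAP and TAZ activity. The genes described here are 10: 9 reported targets, ANKRD1, CCN1, CCN2, AMOTL2, NUAK2, F3, AXL, LATS2 and AJUBA, and the coactivator YAP1 itself.

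The genes were selected on their reported role in this pathway with the measured differences of the comparison below already in view. Their differences are therefore given as a description, with no p-value, and support nothing beyond the values. A gene was taken from array rows annotated to exactly 1 gene symbol, which gave 9 of the 10 genes with 1 row each, among 14272 genes in 14579 such rows and 18495 rows in all. AMOTL2 has no such row, because its row is annotated to RPL39P5 as well. A second row that names YAP1, shared with STXBP5, was left out by the same rule.

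The arrays hold RNA from PNT2, an established line of immortalized human prostatic epithelial cells. Of the 8 samples, 4 were transfected with siRNA against both ESRP1 and ESRP2 (siESRP), which encode epithelial splicing regulators, and 4 with siRNA against GFP (siGFP), the control. All carry an siRNA, and no untransfected cells are among them. Separate cultures are not named in the labels for the 4 samples of either group, and the p-values therefore rest on a spread between samples that may be technical. No exon-level value was used, so splicing of these genes was not measured.

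Before comparison the arrays, whose median deposited intensity ran from 233 to 286, were quantile normalized. Values below are normalized intensities, and log2 differences are siESRP minus siGFP on the log2(intensity + 1) scale, with the fold taken from them. ESRP1 was lower in siESRP (582 ± 66.9 against 2439 ± 169, SD, n = 4 each, limma adjusted p = 6.58e-05), as was the row shared by ESRP2 and NFATC3 (148 ± 27.4 against 531 ± 33.4, adjusted p = 0.000336).

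Of 10 epithelial markers measured, 3 rose, 1 fell and 6 did not pass. CDH1, the E-cadherin gene, rose from 2137 ± 126 to 3042 ± 168 (SD, n = 4 each, limma adjusted p = 0.00182), and KRT18 and KRT19 rose 1.22-fold and 1.17-fold (0.00681 and 0.00780; 0.107 and 0.182 on the deposited scale). KRT14, a basal keratin gene, fell 2.06-fold from 765 ± 161 to 367 ± 41.5 (0.00465). KRT8 (6690 and 6964), EPCAM (3386 and 3120), KRT7 (3700 and 3053), CLDN4, CLDN7 and KLK3, the prostate-specific antigen gene, at a low 61.7 and 65.2, did not pass. These 10 markers summed to 27620 to 29160 per siGFP array and 30050 to 31250 per siESRP array. Of 9 fibroblast markers, FAP, a protease gene, rose 4.11-fold (9.15e-05) and COL1A1, a collagen gene, fell 1.38-fold (0.00649; 0.0544 on the deposited scale). Their sum was 732 to 786 in siGFP and 1227 to 1358 in siESRP, and without FAP it was 527 to 588 and 432 to 498. Of 7 endothelial markers, CDH5, a cadherin gene, rose 1.34-fold (0.0333) and TEK, a receptor kinase gene, fell at levels near background, 30.2 to 22.1 (0.0118; 0.0534 under median scaling and 0.0733 on the deposited scale). The CDH5 call was lost without siGFP replicate 1, 3 or 4 or siESRP replicate 1, 2 or 4 (adjusted p up to 0.0858). The endothelial sum was 383 to 451 in siGFP and 462 to 540 in siESRP, and without CDH5 it was 169 to 185 and 165 to 181. Both group means were under 50, a level near background, for 4 of the fibroblast markers (DCN, LUM, THY1 and POSTN) and 5 of the endothelial ones, and the part of these markers in the results was not tested.

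The 250 bases before the annotated start of the genes with the largest differences are printed from RefSeq (GRCh38.p14), since TEAD binding at the promoter is how several of them are known to be driven. The text runs 5′ to 3′ along the gene. Capitals mark GGAATG or its reverse complement CATTCC, the TEAD core, and TGANTCA, the AP-1 motif, as AP-1 often occupies the same enhancers as YAP and TEAD.
CCN2, chr6:131951373-131951622, minus strand: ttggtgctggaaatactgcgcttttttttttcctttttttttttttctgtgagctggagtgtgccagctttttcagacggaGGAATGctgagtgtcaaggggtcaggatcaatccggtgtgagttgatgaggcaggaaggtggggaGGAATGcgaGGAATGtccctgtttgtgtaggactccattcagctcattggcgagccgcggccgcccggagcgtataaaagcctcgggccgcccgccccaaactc
ANKRD1, chr10:90921088-90921337, minus strand: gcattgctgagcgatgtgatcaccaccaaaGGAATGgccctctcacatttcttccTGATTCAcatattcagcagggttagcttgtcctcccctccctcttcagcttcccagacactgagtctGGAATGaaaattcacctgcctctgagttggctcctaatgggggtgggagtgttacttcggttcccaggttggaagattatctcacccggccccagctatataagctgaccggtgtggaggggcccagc
NUAK2, chr1:205321746-205321995, minus strand: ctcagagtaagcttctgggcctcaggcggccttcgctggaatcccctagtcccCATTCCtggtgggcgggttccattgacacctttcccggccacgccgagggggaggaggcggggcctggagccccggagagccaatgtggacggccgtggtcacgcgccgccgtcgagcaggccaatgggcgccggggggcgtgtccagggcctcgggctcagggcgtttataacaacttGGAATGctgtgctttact
F3, chr1:94541760-94542009, minus strand: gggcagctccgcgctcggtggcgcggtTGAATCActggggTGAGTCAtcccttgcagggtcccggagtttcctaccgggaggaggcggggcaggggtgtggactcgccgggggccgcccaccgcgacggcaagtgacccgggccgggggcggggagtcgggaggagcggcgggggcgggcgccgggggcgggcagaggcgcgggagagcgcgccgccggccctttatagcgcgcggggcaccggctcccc
YAP1, chr11:102110197-102110446, plus strand: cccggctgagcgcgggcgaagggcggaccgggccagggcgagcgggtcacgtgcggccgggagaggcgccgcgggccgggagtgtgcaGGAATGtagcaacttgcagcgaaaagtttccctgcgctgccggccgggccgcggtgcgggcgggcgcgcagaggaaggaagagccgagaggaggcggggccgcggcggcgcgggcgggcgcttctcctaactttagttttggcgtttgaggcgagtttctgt

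The promoters of CCN2, ANKRD1 and NUAK2, the 3 genes with the lowest values in siESRP relative to siGFP, each hold more than 1 TEAD core. CCN2 has 3, beginning 169, 104 and 95 bases before the start, ANKRD1 has 2, at 220 and 128 bases, and NUAK2 has 2, at 197 and 18 bases. Over the window from 250 bases before to 50 after the start, at least 1 such core is present in 14.0% of 35116 RefSeq promoters, at least 2 in 1.37% and at least 3 in 0.128%. YAP1 has 1, at 162 bases, and F3 has none in this window but 2 AP-1 matches, at 223 and 210 bases, where 7.71% of promoters have at least 1 AP-1 match and 0.515% at least 2. ANKRD1 has 1 AP-1 match, at 195 bases. LATS2 has 1 TEAD core, beginning at base 10 after the start, and AXL, AJUBA and AMOTL2 have 2 listed starts each, of which the downstream start has 1 core and the upstream start none. The CArG box of serum response factor, searched on the same windows, matched in none of these promoters and in 1.29% of all. Matches of different motifs were counted separately, with no overlap between them in these genes. CCN1 was not matched in the promoter table, which held 9 of the 10 genes. These matches are letters in a window, and binding was not measured. The genes were chosen for their reported role with YAP and TEAD, so nothing is read from the shares of all promoters. Whether the matches relate to the direction of change was not tested.

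The set divided. ANKRD1, CCN2 and NUAK2 were lower in siESRP than in siGFP on every array, F3, YAP1 and AXL were higher on every array, and CCN1, LATS2 and AJUBA lay lower by smaller amounts. By limma with adjustment over all rows, 3 of the 9 genes passed as higher, 3 as lower and 3 did not pass, where 20.2% of all rows passed, 10.9% as higher and 9.31% as lower. For 7 of the 9 genes the values of the groups were fully apart, as they were for 24.6% of all rows. Because these genes were chosen with this comparison in view, nothing is read from those counts. The median log2 difference was −0.22 over the 9 genes and −0.02 over all rows.

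**Figure D1:**
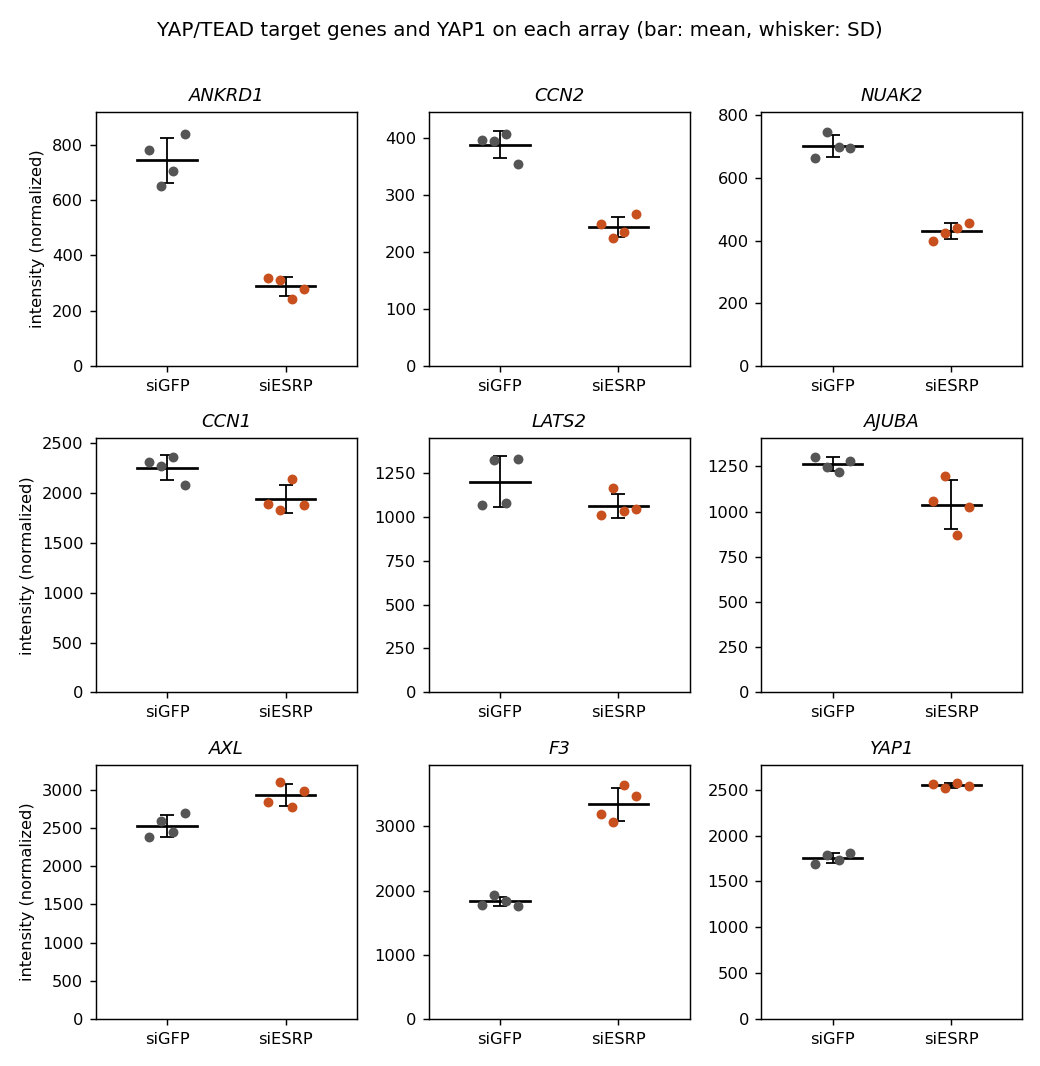
Normalized intensity (vertical axes, linear, from 0) of 9 genes on each of 4 siGFP (grey) and 4 siESRP (orange) arrays, with mean (bar) and SD (whisker). ANKRD1, CCN2, NUAK2 and AJUBA are lower and AXL, F3 and YAP1 higher on all siESRP arrays, and the groups overlap for CCN1 and LATS2.

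ANKRD1 encodes an ankyrin-repeat protein that acts as a transcriptional cofactor in the nucleus and is among the most used YAP target genes. Its siGFP values were 780, 650, 706 and 837 in replicates 1 to 4, and its siESRP values 319, 311, 241 and 278. The highest siESRP array lay below the lowest siGFP array by a wide margin. The means were 743 ± 82.2 and 287 ± 35.8 (SD, n = 4 each), a 2.58-fold lower level and the largest difference in the set (log2 difference −1.37 ± 0.12 SE).

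CCN2 and CCN1 encode secreted matricellular proteins that bind integrins and growth factors. CCN2 read 397, 395, 408 and 355 in siGFP and 250, 225, 235 and 266 in siESRP, so the groups did not overlap. Its mean went from 389 ± 23.4 to 244 ± 17.7 (SD, n = 4 each), which is 1.59-fold lower (−0.67 ± 0.07 SE). CCN1 read 2306, 2275, 2356 and 2077 in siGFP and 1891, 1832, 2142 and 1879 in siESRP. Here siESRP replicate 3 lay above siGFP replicate 4, and the other 3 siESRP arrays lay below every siGFP array. The CCN1 means were 2254 ± 122 and 1936 ± 140 (SD, n = 4 each), a log2 difference of −0.22 ± 0.07 SE, which did not pass the limma threshold except without siGFP replicate 4 or siESRP replicate 3, among the settings that leave out an array.

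NUAK2 encodes a kinase of the AMPK-related family. It read 665, 748, 700 and 697 in siGFP and 398, 426, 439 and 457 in siESRP, again without overlap. The means were 703 ± 34.3 and 430 ± 24.8 (SD, n = 4 each), 1.63-fold lower (−0.71 ± 0.06 SE).

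LATS2, AJUBA and AMOTL2 are targets that feed back on the pathway: LATS2 is a kinase that phosphorylates YAP1, AJUBA is a LIM protein that holds LATS kinases in check at junctions, and AMOTL2 is an angiomotin that binds YAP1. LATS2 read 1068, 1324, 1076 and 1329 in siGFP and 1010, 1161, 1033 and 1043 in siESRP. The siGFP arrays fell into a lower and a higher pair, and siESRP replicate 2 lay above the lower pair (means 1199 ± 147 and 1062 ± 68.0, SD, n = 4 each, log2 difference −0.17 ± 0.10 SE). AJUBA read 1304, 1244, 1218 and 1281 in siGFP and 1059, 1199, 869 and 1026 in siESRP. All siESRP arrays were lower, but they were spread from 869 to 1199 and the nearest was only just below siGFP replicate 3 (means 1262 ± 38.7 and 1038 ± 136, SD, n = 4 each, −0.29 ± 0.10 SE, not past the threshold except without siESRP replicate 2, among the settings that leave out an array). The row shared by AMOTL2 and RPL39P5, which counts for neither gene, read 1754, 1758, 1732 and 1670 in siGFP and 1178, 1186, 1439 and 1357 in siESRP (log2 difference −0.43 ± 0.07 SE).

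F3 encodes tissue factor, the membrane receptor of coagulation factor VII. It read 1782, 1932, 1842 and 1761 in siGFP and 3185, 3068, 3642 and 3470 in siESRP, so every siESRP array was far above every siGFP array. Its mean went from 1829 ± 76.9 to 3341 ± 262 (SD, n = 4 each), 1.82-fold higher and the largest increase in the set (0.87 ± 0.07 SE). AXL encodes a receptor tyrosine kinase for the ligand GAS6. It read 2382, 2592, 2449 and 2697 in siGFP and 2850, 3108, 2780 and 2989 in siESRP, with a narrow gap between siGFP replicate 4 and siESRP replicate 3. Its means were 2530 ± 142 and 2932 ± 146 (SD, n = 4 each), 1.16-fold higher (0.21 ± 0.06 SE). The AXL call by limma was lost on the deposited scale, under median scaling, without the dimmest 25% of rows and when any 1 of 6 arrays was left out, all but siGFP replicate 4 and siESRP replicate 3.

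YAP1, the coactivator, read 1693, 1787, 1730 and 1809 in siGFP and 2562, 2520, 2573 and 2538 in siESRP. The siESRP values lay close together, and the gap to the siGFP arrays was many times the spread of either group. The mean went from 1754 ± 53.0 to 2548 ± 24.1 (SD, n = 4 each), 1.45-fold higher (0.54 ± 0.04 SE), so the YAP1 transcript was higher in the same samples in which ANKRD1, CCN2 and NUAK2 were lower. The row shared by YAP1 and STXBP5 read 470 ± 38.6 and 444 ± 39.6 (SD, n = 4 each), with overlapping groups. Protein level, phosphorylation and nuclear location of YAP1, through which the pathway acts, were not measured.

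**Figure D2:**
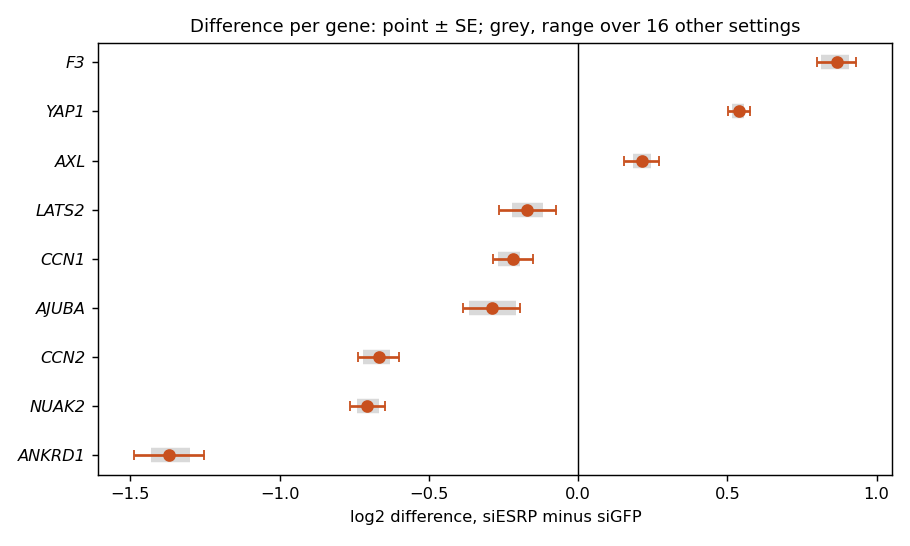
Log2 difference, siESRP minus siGFP (horizontal axis), for each of 9 genes, as point ± SE from 4 against 4 arrays, with the range over 16 other processing settings in grey. F3, YAP1 and AXL lie above 0 and the other 6 below 0, and no grey range reaches 0.

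Within a group the genes did not all share a pattern of high and low arrays. Over the siGFP arrays LATS2, AXL and YAP1 did, each above its group mean in replicates 2 and 4 and below it in replicates 1 and 3. The epithelial markers KRT8, KRT18 and CDH1 had the same siGFP pattern, so it was not particular to the target set. In siESRP replicate 3, ANKRD1 (−0.25 on the log2 scale from the mean of its group) and AJUBA (−0.25) were at their lowest, while CCN1 (0.15) and F3 (0.13) were at their highest. In siGFP replicate 4, CCN1 (−0.12) and CCN2 (−0.13) were at their lowest and ANKRD1 (0.18), AXL (0.09) and LATS2 (0.16) at their highest. CCN1 and CCN2 deviated alike over the siGFP arrays, where both were highest in replicate 3 and lowest in replicate 4, but not over the siESRP arrays, where CCN1 was highest in replicate 3 and CCN2 in replicate 4. Genes of the lists below, such as CRIM1, NT5E and PATJ, were also highest in siGFP replicate 3 and lowest in siGFP replicate 4. YAP1 had the smallest deviations, at most 0.05 on any array, and ANKRD1 and AJUBA the largest, up to 0.25.

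**Figure D3:**
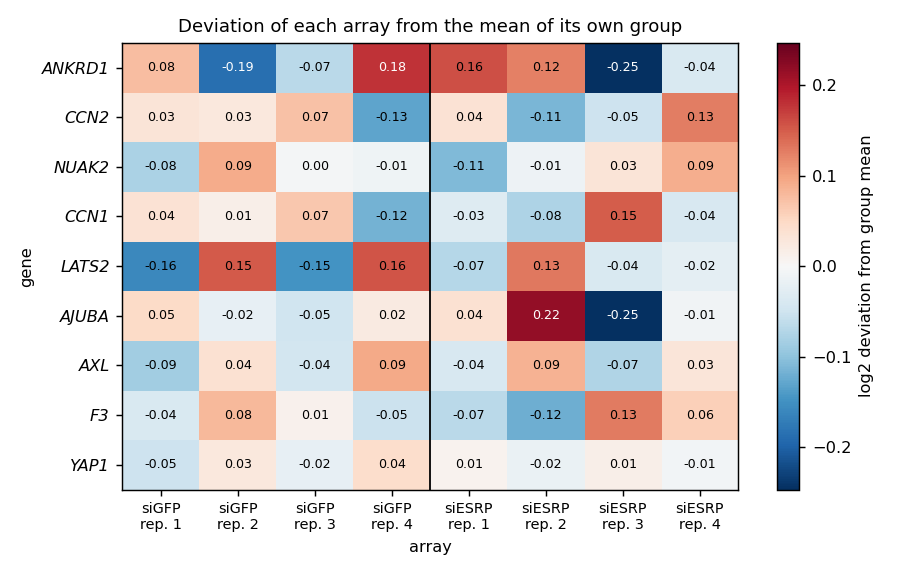
Log2 deviation (colour and printed value) of each array (columns) from the mean of its own group for 9 genes (rows). Red is above and blue below the group mean, and the strongest values, −0.25, are those of ANKRD1 and AJUBA in siESRP replicate 3.

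TAZ, the TEADs and the VGLL cofactors gave 1 call among 8 measured genes, against 20.2% of all rows. This list and those below were chosen with earlier results of these data known, so nothing is read from their shares of calls. All rows also include dim ones. Without the dimmest 25% of rows more rows passed, 3964 in place of 3729, and so a higher share than 20.2%. TEAD4 fell 1.41-fold, from 1049 ± 32.4 to 748 ± 67.0 (SD, n = 4 each, limma adjusted p = 0.00313), with siESRP values of 710, 717, 848 and 716 and siGFP values of 1009 to 1082. Its siESRP replicate 3 stood above the other siESRP arrays and still below every siGFP array. The other TEAD genes did not pass: TEAD1 had a log2 difference of −0.21 (adjusted p = 0.0855), TEAD2 −0.24 (0.270) and TEAD3 0.46 (0.142). WWTR1, which encodes TAZ, had a difference of 0.29 (940 ± 71.7 and 1148 ± 107, SD, n = 4 each, adjusted p = 0.0592), without overlap of the groups, and passed without siESRP replicate 1 (0.0497). VGLL1, VGLL2 and VGLL3, whose products compete with YAP1 for TEADs, did not pass. The list median was −0.21.

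Of 18 measured genes of the kinase cassette and other restraints on YAP, 3 rose and 1 fell, or 22.2% against 20.2% of all rows. WWC2, a paralogue of the scaffold KIBRA, rose 1.77-fold (374 ± 24.9 in siGFP, 665 ± 48.2 in siESRP, SD, n = 4 each, adjusted p = 0.000510). BTRC, the substrate receptor of the ubiquitin ligase that degrades phosphorylated YAP1 and TAZ, rose 1.58-fold (0.0109), and STK4 rose 1.38-fold (0.0159; 0.0542 on the deposited scale). SAV1 fell 1.28-fold, from 3898 ± 359 to 3041 ± 178 (adjusted p = 0.0207). The SAV1 call was lost without siGFP replicate 3 or 4 or siESRP replicate 4 (adjusted p up to 0.0582), under median scaling (0.0652) and on the deposited scale (0.226). STK3 (−0.31, adjusted p = 0.138), MOB1A (0.30, 0.0694), MOB1B (−0.07, 0.541) and NF2 (−0.05, 0.642) did not pass, although MOB1A did without siGFP replicate 3 (0.0491). Neither did WWC1, which passed without siESRP replicate 4 (0.0275), nor TAOK1, which passed without siGFP replicate 4 (0.0226). LATS1 had no row annotated to it alone and was not analysed here. Of 11 genes of junction and polarity inputs, only LLGL1, a lethal giant larvae polarity protein gene, passed, 1.37-fold higher (adjusted p = 0.00513), while FAT1, SCRIB and CTNNA1 did not.

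Other reported target genes went both ways, as the set itself did. Of 12 measured genes of a published YAP and TAZ signature other than those above, 4 rose, 2 fell and 6 did not pass, or 50% called against 20.2% of all rows, with a list median of −0.01. As this list too was chosen with earlier results known, the share is a description only. MYOF, a ferlin of membrane repair, rose 1.70-fold (1565 ± 150 in siGFP, 2654 ± 179 in siESRP, SD, n = 4 each, adjusted p = 0.00128), and ASAP1, an Arf GTPase-activating protein gene, rose 1.42-fold (0.00170). ARHGEF17 rose 1.22-fold (0.0152; 0.0760 on the deposited scale) and NT5E, the ectonucleotidase CD73, rose 1.17-fold (0.0291). TGFB2, the growth factor, fell 1.54-fold from 3009 ± 198 to 1959 ± 140 (0.00146), and RBMS3, an RNA-binding protein gene, fell 1.59-fold from a low level, 93.1 ± 15.2 to 58.1 ± 9.12 (0.0236). The NT5E call was lost when any array but siGFP replicate 3 was left out (adjusted p up to 0.0801), under median scaling (0.123) and on the deposited scale (0.315), and that of RBMS3 without siGFP replicate 1, 2 or 3 or siESRP replicate 4 (up to 0.0609). CCDC80 (−0.43, adjusted p = 0.0872) passed only when siESRP replicate 4 was left out (0.0170), among the settings that leave out an array.

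Of 10 further reported targets, 5 fell by limma and 0 rose, while at an unadjusted p under 0.05 5 were lower and 1 higher. The share that fell, 50%, stands beside 9.31% of all rows, and the list median was −0.27. Because the list was chosen with earlier results of these data known, nothing is read from that share. INHBA, an activin subunit gene, fell 2.24-fold from 1731 ± 151 to 772 ± 49.3 (SD, n = 4 each, limma adjusted p = 0.000215), and EDN1, the endothelin-1 gene, fell 1.93-fold (0.000916). THBS1, a matricellular thrombospondin gene, fell 1.69-fold (0.000439), and DLC1 fell 1.49-fold from 834 ± 22.1 to 558 ± 16.1 (0.000227). BIRC5, the survivin gene, fell 1.33-fold (0.0117), but not as the mean over its rows (0.698) or on the deposited scale (0.0927). ARHGAP29, GLI2, DDAH1, TNFRSF12A and CAVIN2 did not pass, with log2 differences between −0.13 and 0.22.

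**Figure D4:**
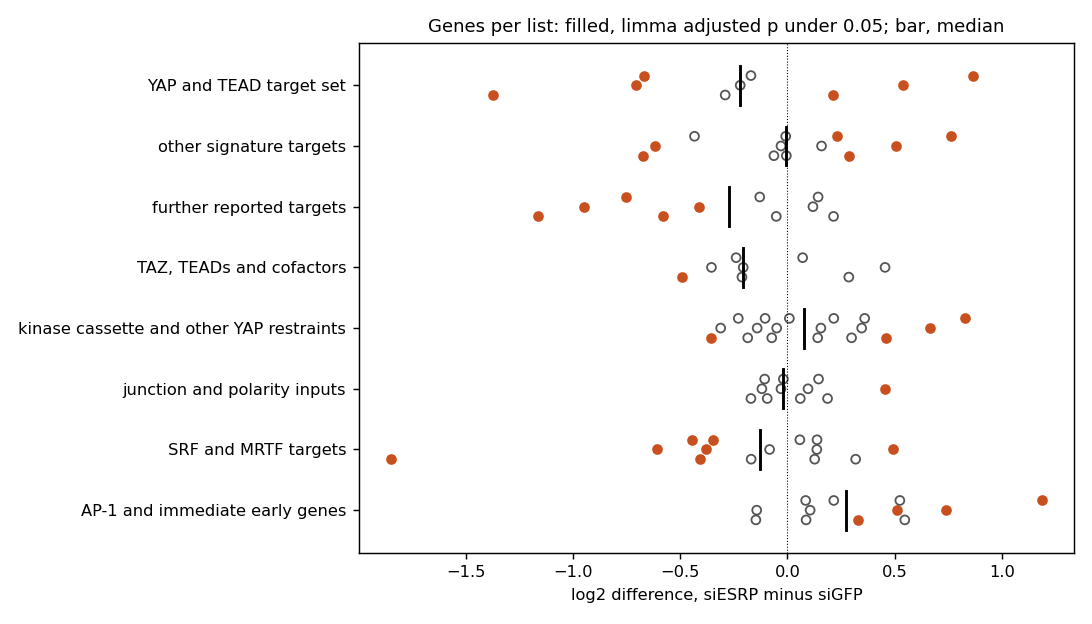
Log2 difference, siESRP minus siGFP (horizontal axis), of every measured gene in the YAP and TEAD target set and 7 related lists (rows), filled where the limma adjusted p was under 0.05, with the list median as a bar. The target set runs from −1.37 to 0.87, with filled points on both sides of 0, and the further reported targets have filled points below 0 only. The target set and the lists were chosen with earlier results of these data known, so nothing is read from how many points are filled.

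Serum response factor with its MRTF coactivators, and AP-1, are known to share target genes with YAP and TEAD. Of 14 measured SRF and MRTF targets, 6 fell, 1 rose and 7 did not pass, or 50% called against 20.2% of all rows (median −0.13). That share is a description only, since the list was chosen with earlier results known. MYL9, a myosin light chain gene, fell 3.60-fold (542 ± 37.8 in siGFP, 153 ± 38.3 in siESRP, SD, n = 4 each, adjusted p = 0.000651), MYH9, a non-muscle myosin heavy chain gene, fell 1.52-fold (0.00229), VCL, vinculin, 1.30-fold (0.0125) and ACTN1, an actinin, 1.27-fold (0.00219; 0.130 on the deposited scale). SRF itself fell 1.36-fold (0.0250) and ZYX, zyxin, 1.32-fold (0.0491), while FHL2, a LIM cofactor gene, rose 1.41-fold (0.0130; 0.0797 under median scaling and 0.180 on the deposited scale). The SRF call was lost without siGFP replicate 1, 3 or 4 or siESRP replicate 1 (adjusted p up to 0.0660) and on the deposited scale (0.149). The ZYX call was lost without any 1 of the siGFP arrays or siESRP replicate 1 or 2 (up to 0.121), under median scaling (0.0523) and on the deposited scale (0.201).

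Of 12 AP-1 and immediate early genes, 4 rose by limma and 0 fell, while at an unadjusted p under 0.05 6 were higher and 0 lower (median 0.27). The share that rose, 33.3%, stands beside 10.9% of all rows, and nothing is read from it, as this list was chosen with earlier results known. EGR1, an immediate early zinc finger factor gene, rose 2.27-fold, from 591, 525, 577 and 545 in siGFP to 1140, 1244, 1524 and 1217 in siESRP (adjusted p = 0.000401). FOS rose 1.67-fold from 164 ± 7.44 to 274 ± 29.4 (SD, n = 4 each, 0.00141). ATF3 and IER3 rose 1.42-fold and 1.26-fold, each close to the threshold (0.0465 and 0.0483). The IER3 call was lost when any of the 8 arrays was left out (adjusted p from 0.0568 to 0.111), under median scaling (0.138) and on the deposited scale (0.306). The ATF3 call was lost when any array but siGFP replicate 2 was left out (up to 0.111) and on the deposited scale (0.0790). FOSL1 (−0.15, adjusted p = 0.485) and JUN (−0.14, 0.161), the AP-1 subunits most often tied to YAP targets, did not pass.

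Partners of F3 and AXL were then read from a list of 19 paralogues, ligands, receptors and inhibitors, written after the values above were known. Of 16 measured, 4 rose and 1 fell, or 31.2% against 20.2% of all rows. TFPI, the inhibitor of the tissue factor pathway, rose 3.41-fold, from 481, 650, 557 and 532 in siGFP to 1745, 1722, 2092 and 2000 in siESRP (limma adjusted p = 0.000162). F2R, the thrombin receptor PAR1, rose from 111 ± 17.4 to 324 ± 26.7 (SD, n = 4 each, 0.000387). PROS1, which encodes protein S, both an anticoagulant and a ligand of the AXL receptor family, rose 2.52-fold from 328 ± 15.98 to 828 ± 90.3 (0.000162), and MERTK, a receptor of that family, rose from 48.1 ± 8.01 to 151 ± 10.0 (0.000304), its siGFP level being near background. GAS6 (0.23, adjusted p = 0.0614) and F7 (−0.34, 0.365) did not pass.

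**Figure D5:**
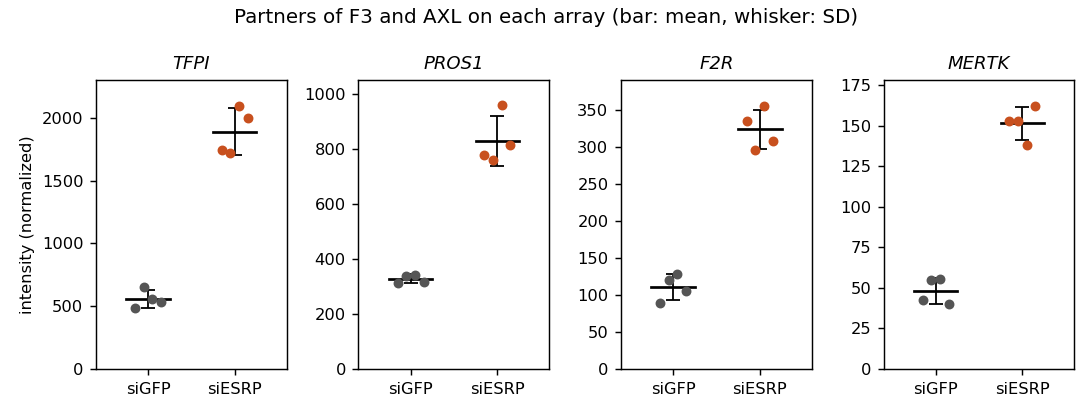
Normalized intensity (vertical axes, linear, from 0) of TFPI, PROS1, F2R and MERTK on each of 4 siGFP (grey) and 4 siESRP (orange) arrays, with mean (bar) and SD (whisker). For all 4 genes every siESRP array is above every siGFP array, and TFPI goes from a mean of 555 to 1890.

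NUAK1, the paralogue of NUAK2, was the gene of this list that fell, 1.32-fold from 1222 ± 63.2 to 925 ± 51.0 (SD, n = 4 each, limma adjusted p = 0.00389). The other CCN genes did not pass: CCN3 had a log2 difference of −0.42 (adjusted p = 0.137; 0.0487 without siGFP replicate 1), CCN4 −0.25 (0.380), CCN5 −0.49 (0.0539; 0.00897 without siESRP replicate 3) and CCN6 0.02, near background. ANKRD2 and AMOTL1, paralogues of ANKRD1 and AMOTL2, had differences of 0.03 and 0.22 and did not pass (adjusted p = 0.832 and 0.0524).

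Likeness was measured over the 8 arrays by Pearson's r, which here follows the difference between the groups for the most part. It was taken for rows with 1 symbol, all 8 normalized values above 0 and a mean of at least 100 in 1 or both groups. Among these 9647 rows, the genes whose values ran most like those of ANKRD1, CCN2 and CCN1 were sought. For CCN2 they were NSUN4 (r = 0.998), WDR5B (0.995) and CHCHD5 (0.993), for ANKRD1 they were ANAPC16 (0.995), TAF5 (0.995) and IRS2 (0.993), and for CCN1 they were RHOBTB2 (0.987), INTS15 (0.987) and TACC1 (0.982). None of these 9 genes belongs to the lists above.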

How the data were processed

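The authors deposited a table of gene-level intensity values on a linear scale (whole numbers, 2.70% to 4.02% of them below 0 per array). How background was corrected, probes were summarised and arrays scaled is not given in the sources used here. Per the labels' protocols, RNA was depleted of ribosomal RNA before labelling for Affymetrix exon arrays. Groups and replicate numbers came from the sample titles.

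Arrays were quantile normalized, values below 0 set to 0, and log2(intensity + 1) tested with limma (3.58.1, R 4.3.3; lmFit, eBayes, no covariate, two-sided, Benjamini-Hochberg over 18495 rows, threshold 0.05). All adjusted p-values are from this test; the steps were also tested on simulated data. Symbols came from GEO's platform annotation, updated through Entrez IDs. The brightest row with 1 symbol stood for a gene. The 10 genes and all lists were chosen with earlier results of these data known. From each list, the TEADs, TAZ and core Hippo genes and up to 6 called genes without overlap per direction were named; other names were chosen after their values were seen. The number of arrays limits the precision.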

Additional observations from a re-analysis of the deposited data

Results flagged for a closer look

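Among 62 rows and 124 groups of 4 arrays examined, 5 had a highest or lowest array whose gap to the nearest other, divided by the range of the group, passed Dixon's 95% critical value, where chance gives about 1 in 20, or 6.20. None of these was a group of the 9 target-set genes. In siESRP, replicate 3 was high for TEAD4 (gap over range 0.951) and TEAD2 (0.880), and replicate 1 was low for KRT19 (0.926). In siGFP, replicate 2 was high for LLGL1 (0.890) and replicate 3 low for KRT19 (0.857).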

How the results depend on the processing

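The log2 differences of the 9 genes kept their sign in all 16 alternative settings: ANKRD1 ran from −1.43 to −1.30, CCN2 from −0.72 to −0.63, NUAK2 from −0.74 to −0.67, CCN1 from −0.27 to −0.20, LATS2 from −0.22 to −0.12, AJUBA from −0.37 to −0.21, AXL from 0.18 to 0.24, YAP1 from 0.51 to 0.56 and F3 from 0.82 to 0.91. Between 5 and 8 of them passed the limma threshold over 17 settings: ANKRD1, CCN2, NUAK2, F3 and YAP1 in each of the settings tested at 0.05, and LATS2 in none of them. Over the same settings the number of all rows that passed ran from 1673 on the deposited scale to 4354 with array weights. The 9 genes were chosen with this comparison in view, so nothing is read from how many of them passed. On the deposited scale 1673 rows passed in place of 3729, with 2 of the kinase cassette list, 3 of the SRF and MRTF list and 2 of the AP-1 list. At adjusted p under 0.01, 1808 rows passed, with 1 of the kinase cassette list, 3 of the signature list, 3 of the SRF and MRTF list and 2 of the AP-1 list. Without the dimmest 25% of rows 2 genes of the TAZ and TEAD list passed, and a trended robust eBayes called 2 of that list and 7 of the kinase cassette list. When an array was left out, the AP-1 list held 2 to 3 calls and the TAZ and TEAD list 1 to 2. With the replicate number as a block 2292 rows passed, with 2 of the AP-1 list. Same-numbered arrays deviated with correlations from −0.19 to 0.21 over 10971 rows. Different-numbered arrays were not compared, so whether the numbers pair the samples cannot be told from these values. The block also ended the calls of AXL, SAV1, NT5E, SRF, ZYX, ATF3, IER3, KRT19 and COL1A1, and TAOK1 passed with it. The cause of these changes was not tested. Median scaling moved the median log2 difference of all rows from −0.02 to −0.11. Levels near background, as for VGLL2 and CCN6, give no reliable difference.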
